A study of Mus musculus with 13 samples.

Results

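Expression of 8 genes known as markers of peptidergic nociceptors, other than the neuropeptides themselves, was described in sorted sensory ganglion cells: Kit, Sstr2, Smr2, Avpr1a, Fam19a1 (also called Tafa1), Cpne6, Rab27b and Prokr2. They were taken by symbol from the 41388 genes in the deposited tables. All 8 matched an Ensembl identifier, and all 8 passed the filter on low counts that left 15406 genes for testing. The cells came from dorsal root ganglia (DRG) of C57BL/6 mice at 3 months of age and were isolated by flow cytometry on EGFP, a reporter of Ret, the receptor tyrosine kinase for GDNF family ligands. The genotype is labelled Tg(Ret-EGFP)SJ in every group, while the series' design text describes heterozygotes with EGFP knocked in at Ret, so all groups share this allele and none is free of it. Ganglia of segments L6 and S1 were pooled as L6S1, and those of L3 to L5 as L345. The 13 bulk RNA-seq libraries were 4 of male L6S1 (replicates A, D, E and F), 3 of male L345, 3 of female L6S1 and 3 of female L345 (A, B and C each). Each library is 1 pool of 2 to 9 mice, amplified from 10 ng of total RNA.

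Peptidergic nociceptors are small sensory neurons that respond to noxious stimuli and release peptides such as CGRP and substance P from their endings in skin, viscera and spinal cord. Receptors on these cells tune their excitability: a tyrosine kinase such as KIT responds to stem cell factor, and receptors coupled to G proteins respond to somatostatin, vasopressin or prokineticins. Peptides are held in dense-core vesicles, whose docking and fusion use small GTPases and calcium sensors. The reporter marks any cell with Ret, which includes many nonpeptidergic neurons as well as part of the peptidergic ones, so that the sorted pool is a mixture.

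Total counts ran from 13030096 to 27011995 per library. Male L6S1 D and E stood apart: their scores on the leading principal component of log2 CPM, which held 40.8% of the variance, were 73.1 and 120.8, against -52.1 to 21.5 elsewhere. Ret was counted in every library, at 165 ± 58.5 CPM in male L6S1 (SD, n = 4), 201 ± 5.76 in male L345, 182 ± 0.877 in female L6S1 and 203 ± 3.64 in female L345 (n = 3 each), with its lowest value of 87.2 CPM in male L6S1 E. Summed CPM of 8 other peptidergic markers, among them Calca (CGRP), Tac1 (substance P) and Gfra3, was 25700 in D and 32800 in E, against 8710 to 15100 in the other 11. Calca and Tac1 made up most of that sum, while Trpv1, on the same list, had 462 CPM in D and 221 in E, against a median of 574 in the other 11. For 12 nonpeptidergic markers, among them Mrgprd, the sums were 1270 and 599 against 1750 to 3390. For 15 markers of satellite glia and Schwann cells they were 4570 in D and 9660 in E, against 3240 to 4750. Apoe, on that list, reached 4980 CPM in male L6S1, against 604 to 881 in male L345. The list did not rise as a whole: its median log2 fold change of L6S1 over L345 in males was -0.52. CPM is the count per library total, scaled by TMM, a factor that corrects for RNA composition, and written in the unit its name gives. A fold change is given as log2 of L6S1 over L345, or of males over females, with its standard error (SE).

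Per kilobase of gene length (RPKM, averaged over 13 libraries), the members fell into 2 sets. Kit at 23.7, Sstr2 at 16.0, Rab27b at 14.5 and Cpne6 at 14.2 RPKM lay between the 77.3 and 84.3 percentiles of the genes tested. Their ranges over libraries overlapped, and Kit, from 3.69 to 54.1 RPKM, spanned those of the other 3. Avpr1a at 1.64, Smr2 at 1.57, Fam19a1 at 1.05 and Prokr2 at 0.628 RPKM lay between the 20.5 and 36.9 percentiles. Their ranges also overlapped, and the highest value among them, 3.16 RPKM for Avpr1a, was under the lowest of the first 4. Smr2 rested on 4 to 34 reads per library and Prokr2 on 18 to 188, while Rab27b had 1391 to 4143. No member's exons overlap those of another gene in GENCODE M21 on GRCm38.

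**Figure D1:**
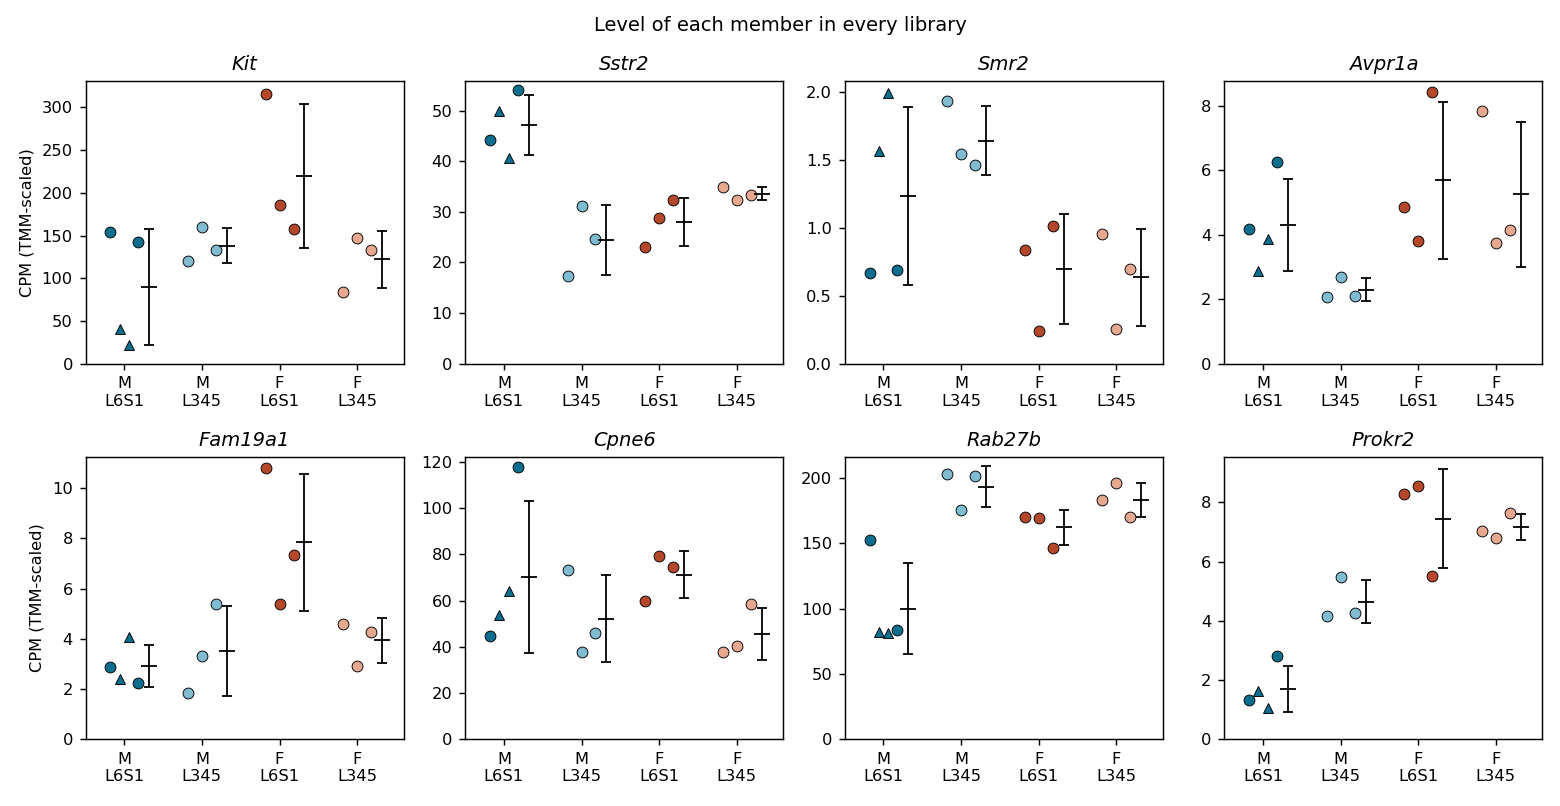
CPM (y axis, from 0, scale differs by panel) of each member in the 13 libraries, by sex (M, F) and level (x axis). Each point is 1 library, triangles are male L6S1 D and E, and the horizontal bar with whiskers is the group mean ± SD. Prokr2 lies between 1.05 and 2.81 CPM in male L6S1, under every other library, a split read after the values were seen. Kit is lowest in the 2 triangles.

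The first comparison asked how ganglia with many pelvic visceral afferents (L6S1) differ from those serving mainly the hindlimb (L345). Averaged over the sexes, edgeR's quasi-likelihood test called 0 of the 8 members at an adjusted p under 0.05, while it called 69 of 15406 genes, 0.448%. At an unadjusted p under 0.05 there were 3 members, Cpne6, Rab27b and Prokr2, beside 8.39% of all genes, and DESeq2 and limma voom also called 0. In males 0 of 8 passed (34 genes in all, 0.221%), with 4 at an unadjusted p under 0.05, where 25.3% of all genes were. Limma voom called 0 in males as well, and DESeq2 called 3, in a fit that called 904 of 26901 genes. In females 0 of 8 passed (3 genes in all, 0.0195%; with the replicate letter as a block 56 genes, none a member), with 1 at an unadjusted p under 0.05 beside 2.25% of all genes, and 0 by DESeq2 or limma voom. The median log2 fold change of the 8 was -0.36 in males and 0.14 in females, against 0.04 and 0.00 over all genes tested.

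Non-overlap of single libraries gives another description. In males, 4 members had L6S1 values wholly above or below those of L345 (18.7% of all genes did): Sstr2 and Avpr1a above, Rab27b and Prokr2 below. In females, 5 members did so (8.75% of all genes): Kit, Fam19a1 and Cpne6 above, Sstr2 and Rab27b below. Over both sexes together only Rab27b was separated, with all 7 L6S1 libraries below all 6 of L345, as in 0.766% of genes.

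**Figure D2:**
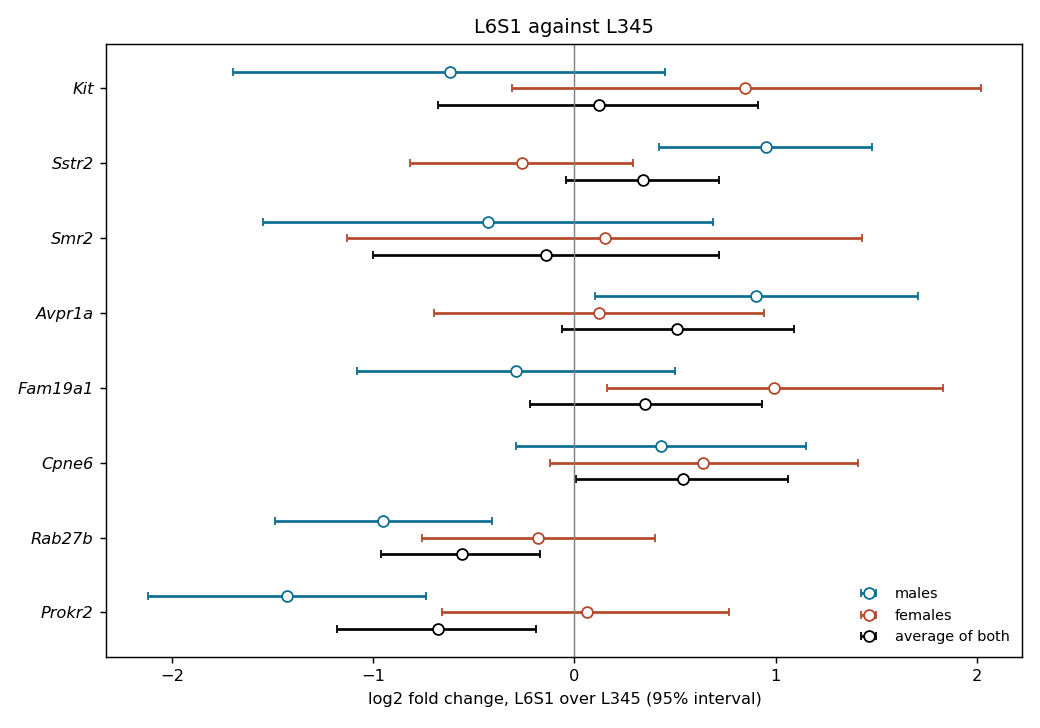
Log2 fold change of L6S1 over L345 (x axis, 95% interval as whiskers) for each member (y axis) in males, females and averaged over them, from edgeR. No value passes the adjusted threshold; Prokr2 at -1.43, Rab27b at -0.95, Sstr2 at 0.95 and Avpr1a at 0.90 in males have intervals that leave out 0.

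Kit, the receptor tyrosine kinase for stem cell factor (ENSMUSG00000005672, chromosome 5, 75574916 to 75656722), had 154, 40.7, 21.5 and 142 CPM in male L6S1 A, D, E and F, against 120, 160 and 133 CPM in male L345. In females it had 316, 186 and 158 CPM at L6S1, against 84.3, 147 and 133 CPM at L345. The female groups did not overlap, whereas D and E, far below every other library, and A and F, among the rest, made male L6S1 wide. The log2 fold change was -0.62 (SE 0.51) in males and 0.85 (SE 0.55) in females, and neither passed (edgeR, adjusted p = 0.437 and 1.00). Without D and E the male value was 0.09. Kit is also known in mast cells and melanocytes. Mast cell markers summed to 1.75 to 3.16 CPM in male L6S1, 2.68 to 3.16 in male L345, 2.38 to 4.27 in female L6S1 and 2.51 to 3.04 in female L345, with 7 of 10 under 1 CPM everywhere, Tpsab1 and Fcer1a without a count and Cpa3 at 1.70 CPM or less. Melanocyte markers summed to 47.7 to 71.4 CPM in male L6S1, 98.1 to 112 in male L345, 99.1 to 112 in female L6S1 and 100 to 123 in female L345, most of it Ednrb, which glia also express, while Tyr had no count and Dct at most 0.0931 CPM.

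Sstr2, an inhibitory somatostatin receptor coupled to Gi (ENSMUSG00000047904, chromosome 11, 113619342 to 113626028), had 44.2, 49.9, 40.6 and 54.0 CPM in male L6S1, against 17.3, 31.2 and 24.7 CPM in male L345. The female values were 23.0, 28.8 and 32.3 CPM at L6S1, against 35.0, 32.4 and 33.4 CPM at L345. All 4 male L6S1 libraries, D and E included, were above all other 9, and in females L6S1 was slightly below L345 without overlap. Splits of a single group from all other libraries, for this and other members, were read after the values were seen. The share of all genes split in that way is not given. The fold change was 0.95 (SE 0.25; edgeR, adjusted p = 0.137) in males and -0.26 (SE 0.26; adjusted p = 1.00) in females. DESeq2 called the male value (0.96, adjusted p = 0.0103), as did edgeR without male L6S1 A (0.98, adjusted p = 0.0225). Without D and E together it was 1.00 (adjusted p = 0.296). In bulk libraries such as these, more cells of a type and more RNA per cell cannot be told apart.

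Avpr1a, the vasopressin receptor coupled to Gq (ENSMUSG00000020123, chromosome 10, 122448499 to 122453453), had 4.18, 2.87, 3.86 and 6.27 CPM in male L6S1, against 2.08, 2.70 and 2.09 CPM in male L345. Female libraries had 4.85, 3.79 and 8.44 CPM at L6S1 and 7.85, 3.75 and 4.15 CPM at L345. The male groups were separated by a narrow gap between 2.87 and 2.70 CPM, and the female groups overlapped almost wholly. In males the fold change was 0.90 (SE 0.38; edgeR, adjusted p = 0.170) and without D and E 1.18 (adjusted p = 0.623), and in females it was 0.12 (SE 0.39; adjusted p = 1.00).

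Prokr2, a receptor for the prokineticins (ENSMUSG00000050558, chromosome 2, 132337733 to 132385447), had 1.34, 1.65, 1.05 and 2.81 CPM in male L6S1, against 4.17, 5.49 and 4.28 CPM in male L345. It had 8.29, 8.54 and 5.52 CPM in female L6S1, against 7.05, 6.79 and 7.64 CPM in female L345. Male L6S1 was below all other 9 libraries, male L345 came next, and the 2 female groups lay over each other. The male fold change was -1.43 (SE 0.33; edgeR, adjusted p = 0.101), the female one 0.06 (SE 0.34; adjusted p = 1.00). The male value passed by DESeq2 (-1.41, adjusted p = 0.00691), in edgeR without the low-count filter (adjusted p = 0.0368), without male L6S1 A (-1.32, adjusted p = 0.0217) and without male L6S1 F (-1.78, adjusted p = 0.0309). Without D and E together it was -1.17 (adjusted p = 0.469).

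RefSeq promoter sequences on GRCm38.p6 were at hand for 6 of the 8 members, not for Cpne6 or Rab27b. The 250 bases before the annotated start are shown for Prokr2 (chr2:132385448-132385697, minus strand) and Sstr2 (chr11:113619077-113619326, plus strand). Prokr2 was the only member called between the sexes in the main edgeR fit, a call that depended on single libraries. Sstr2 had the largest positive fold change of the 8 in males. The bases run 5′ to 3′ on the strand of the gene, with every motif match in capitals.
Prokr2: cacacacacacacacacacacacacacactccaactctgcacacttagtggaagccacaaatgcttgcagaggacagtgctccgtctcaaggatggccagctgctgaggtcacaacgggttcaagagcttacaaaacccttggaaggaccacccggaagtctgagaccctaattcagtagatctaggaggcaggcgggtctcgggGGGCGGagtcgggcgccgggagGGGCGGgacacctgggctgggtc
Sstr2: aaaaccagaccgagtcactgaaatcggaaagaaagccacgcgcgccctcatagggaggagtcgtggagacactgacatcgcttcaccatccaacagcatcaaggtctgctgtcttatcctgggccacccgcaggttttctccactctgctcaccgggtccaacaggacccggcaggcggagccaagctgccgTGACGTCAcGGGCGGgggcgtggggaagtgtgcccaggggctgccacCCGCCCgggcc
The letters searched on both strands, chosen after the members' values were seen, were the GC box GGGCGG (in 32.7% of 32851 promoters of this length), the cyclic AMP response element TGACGTCA (1.55%), the estrogen response element, a GGTCA and a TGACC set 3 bases apart (0.0639%), the androgen receptor hexamer AGAACA (16.1%), the Runx site TGTGGT (14.0%) and the TATA box TATAAA (12.4%). The motif letters do not overlap in these windows. Prokr2 held 2 GC boxes, the nearer 17 bases from the start. Sstr2 held 2 GC boxes, 1 on each strand, and a cyclic AMP response element 50 bases from the start. The other letters searched were not in these windows. The Prokr2 window was 59.2% GC with 10 CpG and the Sstr2 window 63.6% with 18, against medians of 52.4% and 6 over all promoters.

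Fam19a1, a small secreted protein of the chemokine-like TAFA family (ENSMUSG00000059187, chromosome 6, 96113154 to 96657198), had 2.89, 2.40, 4.09 and 2.26 CPM in male L6S1, against 1.86, 3.31 and 5.40 CPM in male L345. In females it had 10.8, 5.41 and 7.34 CPM at L6S1, against 4.61, 2.94 and 4.27 CPM at L345. The female L6S1 libraries were the 3 highest of all 13, and the male groups overlapped. The fold change was -0.29 (SE 0.37; edgeR, adjusted p = 0.632) in males and 0.99 (SE 0.39; adjusted p = 1.00) in females. That female value was the only 1 with an unadjusted p under 0.05 in edgeR.

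Smr2, a secreted protein first known from the mouse submaxillary gland (ENSMUSG00000029281, chromosome 5, 88086556 to 88109053), had 0.668, 1.56, 1.99 and 0.692 CPM in male L6S1, against 1.93, 1.54 and 1.46 CPM in male L345. Female libraries had 0.838, 0.241 and 1.01 CPM at L6S1 and 0.955, 0.253 and 0.698 CPM at L345. D and E were near male L345, A and F lay within the range of the female libraries, and the levels overlapped in both sexes. The fold changes were -0.43 (SE 0.53) in males and 0.15 (SE 0.60) in females (edgeR, adjusted p = 0.614 and 1.00), and without D and E the male value was -1.27 (adjusted p = 0.623). A count of 3 would be 0.111 to 0.230 CPM, so the lowest Smr2 values lay close to what these depths can show.

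Rab27b, a small GTPase of vesicle docking and exocytosis (ENSMUSG00000024511, chromosome 18, 69979131 to 70141605), had 152, 82.4, 81.3 and 83.6 CPM in male L6S1, against 203, 175 and 201 CPM in male L345. In females it had 170, 169 and 146 CPM at L6S1, against 183, 196 and 170 CPM at L345. D, E and F were close together at the bottom, A was apart from them among the female L6S1 libraries, and all L6S1 libraries were under all L345 libraries, by a margin of under 1 CPM. The averaged fold change was -0.56 (SE 0.19; edgeR, adjusted p = 0.382), made of -0.95 (SE 0.26; adjusted p = 0.137) in males and -0.18 (SE 0.27; adjusted p = 1.00) in females. Without male L6S1 A edgeR called both the average (-0.70, adjusted p = 0.0392) and the male value (-1.22, adjusted p = 0.00978), in a fit that called 3133 genes in males. DESeq2 called the male value (-0.94, adjusted p = 0.0183), and without D and E edgeR gave -0.72 (adjusted p = 0.585).

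Cpne6, a copine that binds phospholipid in the presence of calcium (ENSMUSG00000022212, chromosome 14, 55510445 to 55517431), had 44.5, 53.9, 64.2 and 118 CPM in male L6S1, against 73.3, 37.6 and 45.8 CPM in male L345. The female values were 59.9, 79.3 and 74.4 CPM at L6S1, against 37.8, 40.5 and 58.4 CPM at L345. The female groups were separated by a gap of under 2 CPM, and in males only F stood above L345. Its averaged fold change of 0.54 (SE 0.25) did not pass (edgeR, adjusted p = 0.589), and it had the same sign in males, 0.43 (SE 0.34), and females, 0.64 (SE 0.36).

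The difference of the level effect between the sexes, male minus female, was tested as an interaction. EdgeR, DESeq2 and limma voom called 0 of 8 members, and edgeR called 0 of 15406 genes, 0%. At an unadjusted p under 0.05 edgeR gave 3 members, beside 11.7% of all genes. The 3 were Prokr2 at -1.48 (SE 0.47), Sstr2 at 1.21 (SE 0.36) and Fam19a1 at -1.28 (SE 0.54), each at an adjusted p of 0.409.

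Males and females were compared over both levels and within each. The submitters' processing notes for female libraries name STAR 2.0.4b, Salmon and mm10 beside the Subread, featureCounts 1.4.5 and GRCm38.p2 named for all libraries, and this difference in notes cannot be told apart from sex. The samples are also numbered in separate runs for the female libraries, for most male ones, and for male L6S1 E and F. Male L6S1 E and F thus lie in another run than all male L345 libraries, which also bears on L6S1 against L345 in males. What these runs stand for is not given. Averaged over the levels, edgeR called 1 of 8 members, Prokr2, beside 12 of 15406 genes, 0.0779%. At an unadjusted p under 0.05 there were 4 members and 6.10% of all genes. Of those 12, 8 lie on the sex chromosomes, and the other autosomal calls, named after their values were seen, were Pth2r, Olfr558 and Npr3. Prokr2 averaged 2.97 ± 1.71 CPM in males (SD, n = 7) and 7.30 ± 1.11 CPM in females (SD, n = 6). The 7 male libraries, from 1.05 to 5.49 CPM with a median of 2.81, lay under the 6 female ones, from 5.52 to 8.54 CPM with a median of 7.35, by a gap narrower than the spread in either sex. It was the only member so separated, as were 0.175% of all genes. The fold change was -1.36 (SE 0.24; edgeR, adjusted p = 0.0377), a ratio of 0.389.

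At L6S1 Prokr2 was again the 1 member called by edgeR, beside 13 genes in all, 0.0844%, with 5 members and 26.0% of all genes at an unadjusted p under 0.05. It averaged 1.71 ± 0.770 CPM in males (n = 4) and 7.45 ± 1.68 CPM in females (n = 3), a fold change of -2.10 (SE 0.32; edgeR, adjusted p = 0.0111). At L345 edgeR called 0 of 8 members (5 genes in all, 0.0325%), with 2 members, Avpr1a and Smr2, and 0.863% of all genes at an unadjusted p under 0.05, and 0 called by DESeq2 or limma voom. There Prokr2 averaged 4.65 ± 0.735 CPM in males and 7.16 ± 0.435 CPM in females (n = 3 each) without overlap, at -0.62 (SE 0.34; edgeR, adjusted p = 1.00). The gap between these effects is the interaction of -1.48 given above, which did not pass.

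The Prokr2 calls depended on single libraries. The averaged call remained without male L6S1 E (adjusted p = 0.0403), without male L6S1 F (0.00617) and without female L6S1 C (0.0405) in edgeR. It ended when any other library was left out. The adjusted p was then 0.0794 for male L6S1 A, 0.0870 for male L6S1 D, and 0.146, 0.0989 and 0.232 for replicates A, B and C of male L345. It was 0.134 and 0.163 for female L6S1 A and B, and 0.0842, 0.119 and 0.140 for replicates A, B and C of female L345. The fold change stayed between -1.54 and -1.29 in all 13. The L6S1 call ended without female L6S1 A (adjusted p = 0.0810), female L6S1 B (0.0806) or male L6S1 D (0.0555). Without D and E together neither Prokr2 call passed, at -1.24 (adjusted p = 0.166) over the levels and -1.85 (0.271) at L6S1. DESeq2 gave adjusted p = 6.11e-05 and 1.35e-06 for the same comparisons, and limma voom 0.0275 and 0.0121. The averaged call ended in edgeR with library totals alone (adjusted p = 0.0543), and the L6S1 call with only the 2 groups compared (0.111).

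Other members were called between the sexes only in part of the fits. At L6S1 the Kit values of males, 21.5 to 154 CPM, lay under those of females, 158 to 316 CPM, at -1.30 (SE 0.51; edgeR, adjusted p = 0.142), or -0.58 (adjusted p = 0.608) without D and E. Fam19a1 at -1.43 (SE 0.37) and Sstr2 at 0.75 (SE 0.25) were also separated there, both at an adjusted p of 0.130 by edgeR, so that 4 of 8 members with Prokr2 did not overlap, as in 11.9% of all genes. DESeq2 called Fam19a1 (adjusted p = 0.0247) and Sstr2 (0.0425), and edgeR without the low-count filter called Fam19a1 (0.0414), in fits that called 1070 and 197 of 26901 genes. Without male L6S1 A edgeR called Kit (-1.69, adjusted p = 0.0347), Sstr2 (0.0457), Fam19a1 (0.0264) and Rab27b (-0.97, 0.0136) beside Prokr2, among 3149 genes. At L345, 4 members did not overlap, as in 6.60% of genes: Avpr1a at -1.19 (SE 0.40), Sstr2 at -0.46 (SE 0.26) and Prokr2 were lower in males and Smr2 at 1.36 (SE 0.59) was higher, each at an adjusted p of 1.00 by edgeR. The unadjusted p values were 0.00936 for Avpr1a and 0.0356 for Smr2.

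**Figure D3:**
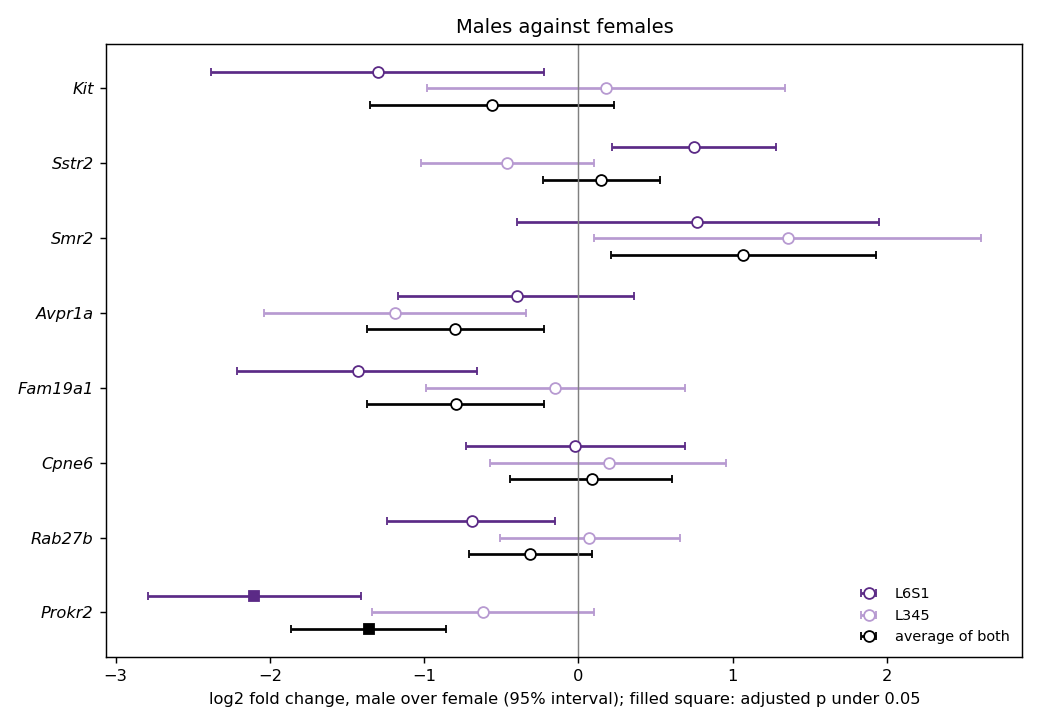
Log2 fold change of males over females (x axis, 95% interval as whiskers) for each member (y axis) at L6S1, at L345 and averaged over the levels, from edgeR. Filled squares passed an adjusted p under 0.05 and are the 2 Prokr2 values of -2.10 at L6S1 and -1.36 averaged over the levels.

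The partners of these genes in their pathways were read from lists chosen with earlier results of these data known. Of 23 Kit signalling genes 22 were tested and 0 were called in any of the 7 comparisons by edgeR, with 6 at an unadjusted p under 0.05 in males, where 25.3% of all genes were. Kitl, which encodes stem cell factor, averaged 8.42 ± 3.98 CPM in male L6S1, 23.2 ± 8.61 in male L345, 23.9 ± 18.1 in female L6S1 and 21.5 ± 4.00 in female L345, at -1.46 in males (SE 0.44; edgeR, adjusted p = 0.137). Of the somatostatin family 3 of 6 genes were tested and 0 called: Sst, the ligand, ranged from 10.4 to 65.5 CPM, Sstr1 from 1.41 to 5.38 and Sstr4 from 0.212 to 1.92. Cort and Sstr3 stayed at or under 0.176 CPM. Of the vasopressin and oxytocin family 2 of 6 were tested and 0 called, with Oxtr at 0.240 to 1.86 CPM and Avp at 0.301 CPM or less.

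In the prokineticin family 2 of 4 genes were tested. Mrap2, an accessory protein of melanocortin and prokineticin receptors, averaged 30.6 ± 11.4 CPM in male L6S1, 5.90 ± 0.370 in male L345, 23.2 ± 2.05 in female L6S1 and 6.08 ± 1.51 in female L345. L6S1 lay above L345 in both sexes without overlap, and Mrap2 rose by 2.15 averaged over the sexes (SE 0.23; edgeR, adjusted p = 0.000284) and by 2.37 in males (SE 0.32; adjusted p = 0.00560), while the female 1.93 (SE 0.33) did not pass (adjusted p = 0.0567). Prokr1, the paralog of Prokr2, averaged 11.2 ± 7.62 CPM in male L6S1, 21.0 ± 2.37 in male L345, 15.8 ± 2.60 in female L6S1 and 18.5 ± 1.52 in female L345 and was not called. Between males and females at L6S1 its fold change was -0.48 (edgeR, adjusted p = 0.462). The ligand Prok2 stayed at or under 0.298 CPM and Prok1 had no count.

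Of the Rab27 machinery 18 of 22 genes were tested and 1 called. Rab3b, another small GTPase of secretory vesicles, averaged 72.2 ± 26.9 CPM in male L6S1, 23.3 ± 3.04 in male L345, 29.0 ± 1.55 in female L6S1 and 18.9 ± 2.66 in female L345. It rose by 1.12 averaged over the sexes (SE 0.22; edgeR, adjusted p = 0.0321) and by 1.63 in males (SE 0.31; adjusted p = 0.0383), opposite in sign to the Rab27b values. Rab27a, the paralog of Rab27b, ranged from 14.6 to 62.3 CPM with an averaged fold change of -0.04 (adjusted p = 0.968). The effector Rph3a gave -0.56 (adjusted p = 0.529), and Sytl4 and Sytl5 stayed at or under 1.19 CPM. In the TAFA family 4 of 4 genes were tested and 0 called, with Fam19a4 at 182 to 483 CPM, Fam19a5 at 2.16 to 7.37 and Fam19a2 at 2.49 to 12.0. Fam19a2, like Fam19a1, averaged most in female L6S1, at 9.94 ± 1.88 CPM, against 3.00 ± 0.448 in female L345 (1.72; edgeR, adjusted p = 0.204). In the copine family 6 of 8 were tested and 0 called, with averaged fold changes of -0.50 for Cpne3, -0.05 for Cpne4 and 0.27 for Cpne8, and Cpne7 at or under 0.471 CPM. Of 10 G protein partners 9 were tested and 0 called, and of the Smr2 neighbours in the list 0 of 3 were tested, with sums of at most 0.0364 CPM.

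Set beside peptides and receptors also known as markers of peptidergic nociceptors, the members did not share 1 pattern. Whether these genes mark the same cells cannot be read from bulk libraries. Of the 8 other peptidergic markers, edgeR called Gal, the galanin precursor, in males, at 1000 ± 554 CPM in L6S1 and 202 ± 33.2 CPM in L345 (2.31, SE 0.42, adjusted p = 0.0315), and none in females or over both sexes. In D and E, Calca stood at 14300 and 17000 CPM against a median of 5790 in the other 11 libraries, Tac1 at 7110 and 11100 against 2460, and Gal at 1420 and 1510 against 306. The other markers of that list did not all do so: Calcb lay 0.86 and 1.17 log2 units above its median, Gfra3 0.56 and 0.48 above and Adcyap1 0.03 and 0.55 above, whereas Trpv1 lay 0.31 and 1.37 below. In the same 2 libraries Kit lay 1.86 and 2.77 log2 units below its median in the other 11, Prokr2 1.68 and 2.29 below and Rab27b 1.05 and 1.06 below. Sstr2 lay 0.62 and 0.33 above its median, Smr2 0.82 and 1.16 above, and Avpr1a, Fam19a1 and Cpne6 between 0.80 below and 0.14 above. By neuron class, edgeR called 0 markers of each averaged over the sexes, with a median log2 fold change of 0.48 over 8 other peptidergic, -0.41 over 12 nonpeptidergic and -0.13 over 11 A-fibre markers tested, against 0.02 over all genes. At an unadjusted p under 0.05 there were 3, 2 and 1 of these. Gfra3 gave 0.58, Mrgprd -0.42 and Nefh 0.11. Sums of some other cell types were also highest in D and E: endothelial markers at 79.5 and 111 CPM against 30.0 to 61.3 in the other 11, skeletal muscle markers at 17.2 and 15.7 against 3.75 to 7.14, and macrophage markers at 10.5 and 14.1 against 2.87 to 9.00. Fibroblast markers were at 273 and 587 CPM against 79.4 to 440. The macrophage and fibroblast sums rested largely on single genes, and the skeletal muscle sum on Acta1 and Mylpf. These reached 10.9 and 7.08 CPM in male L6S1, while 5 of 7 muscle markers stayed under 1 CPM in every library. Endothelial markers were uneven in male L6S1: Emcn reached 40.9 CPM and Esam 30.4, but Cdh5 at most 4.10 and Kdr at most 2.12. Of 12 macrophage markers 9 stayed under 1 CPM in every library, while C1qb reached 10.7 CPM in male L6S1. Dcn reached 570 CPM in male L6S1, where Col1a1, Col1a2, Col3a1 and Lum stayed at or under 8.31 CPM. Among macrophage markers edgeR had C1qb as the only gene called (2.18 averaged over the sexes, adjusted p = 0.00667, and 2.66 in males, adjusted p = 0.0315). The part of these mixtures in the members' values was not tested.

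**Figure D4:**
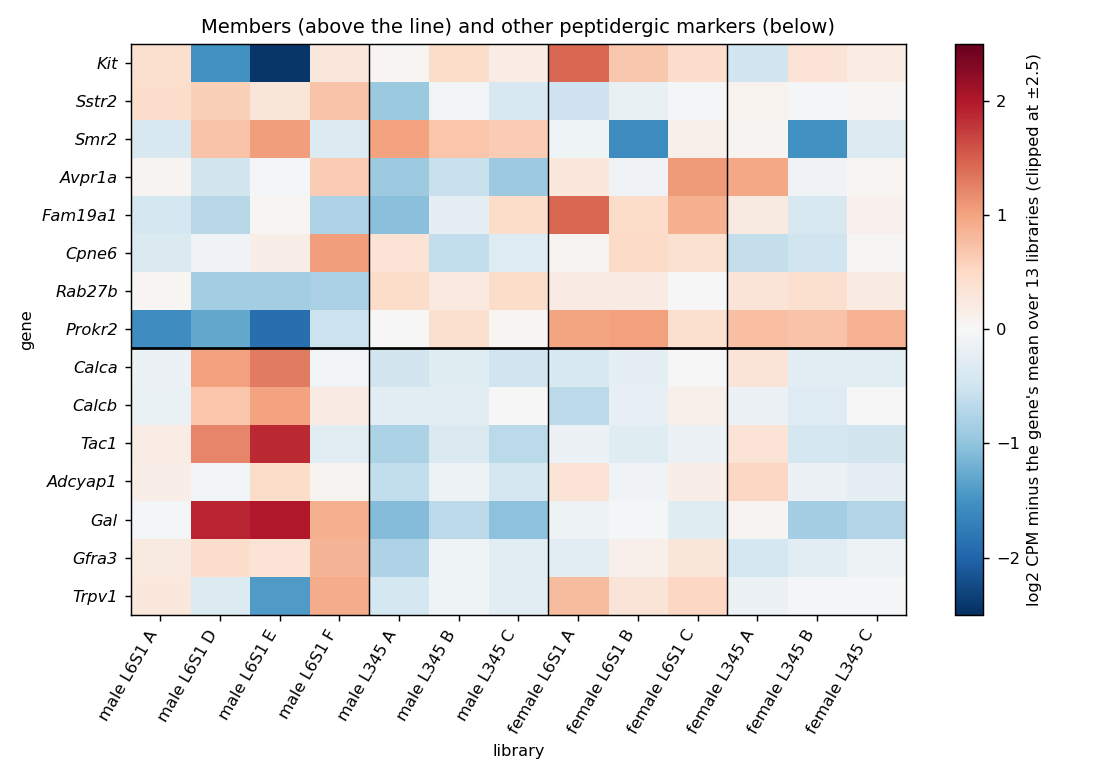
Log2 CPM of the 8 members (above the line) and of other peptidergic markers (below) in each library (x axis), minus the gene's own mean over the 13 libraries. In male L6S1 D and E, Kit, Rab27b and Prokr2 are below their means where Calca, Calcb, Tac1, Gal and Gfra3 are above theirs, while Trpv1 is below its mean in both and Adcyap1 is below its mean in D and above it in E.

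Likeness between genes was described by the root mean square difference of centred log2 CPM over the 13 libraries, where 0 would be an identical profile. Among members the smallest differences were between Sstr2 and Avpr1a, at 0.58, and between Sstr2 and Cpne6, at 0.61. The sizes of these genes' own deviations were 0.44 for Sstr2, 0.60 for Avpr1a and 0.47 for Cpne6. Their profiles thus differed by about as much as they varied, and the measure favours genes that vary little. Kit and Prokr2 lay 0.75 apart, with own deviations of 0.95 and 0.96. Among the 11234 genes whose mean log2 CPM reached 1, Rab27b had the nearest neighbours, Rap2c at 0.11 and Mllt3 at 0.13, against a size of its own deviations of 0.48. Kit was nearest to Bend4 at 0.24 and Htr1a at 0.26, out of 0.95. Sstr2 was nearest to Spg7 at 0.19 and Tmem101 at 0.20, and Cpne6 to Shpk and E2f6, both at 0.26. Prokr2 lay 0.45 from Dock1 and 0.46 from Dcx, out of 0.96. The nearest genes of the other 3 were Dbx2 at 0.46 and Setmar at 0.54 for Smr2, Sectm1b and Cacng3 at 0.38 for Avpr1a, and Slc4a7 at 0.37 and Rps6ka5 at 0.40 for Fam19a1. These values share libraries and depth and are a description.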

How the data were processed

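Each of 13 files, 1 per library, held a count, a CPM and an RPKM value for 41388 genes. The counts that the authors deposited were whole numbers without normalization and were the input of all tests. CPM as deposited equalled count over library total, and the deposited RPKM equalled that CPM per kilobase of the length given in the file. Per the submitters' processing notes, Subread, featureCounts 1.4.5 and GRCm38.p2 were named for every library; STAR 2.0.4b, Salmon and mm10 were named for female ones only. Treatment of strand and of multi-mapped reads is not given in the sources used here.

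In R 4.3.3, filterByExpr kept 15406 genes, TMM scaled them, and the quasi-likelihood F-test with robust estimation in edgeR 4.0.16 was fitted with 1 mean for each of 4 groups, with Benjamini-Hochberg adjustment over all genes tested and a threshold of 0.05. The test was tried on simulated counts with the same dispersion for every gene and no outlying libraries. That trial does not cover libraries such as male L6S1 D and E. SE was the absolute log2 fold change over the root of F. Alternatives were other size factors, library totals alone, no filter, no robust estimation, DESeq2 1.42.0, limma 3.58.1 voom, only the 2 groups compared, each library left out, D and E left out, and the replicate letter as a block. Deviations of same-letter libraries of the same sex correlated at 0.520, 0.203 and 0.488 for female A, B and C. For male A the correlation was only 0.101. This was taken as possible pairing, and the letter was a block only in an alternative, not in the main fit. Between levels the block gave 56 calls in females and 0 in males, against 3 and 34. At L6S1 and L345, female C pooled 5 and 3 mice and male A 9 and 5. Where the letters come from is not given.

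Members, lists and tests were chosen with earlier results of these data known. All members were named, as were called genes of the lists, a fixed set of partners and markers, and the 2 nearest genes by likeness. Symbols and coordinates came from GENCODE M21, and 40254 identifiers had a symbol. Counting floors and amplified reads cover counting error only, and p-values measure the spread between pools of mice. 1 gene of the fixed set is not reported here.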

Additional observations from a re-analysis of the deposited data

Results flagged for a closer look

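Rab27b in male L6S1 A, at 152 CPM, lay far from the other 3 libraries of its group, at 81.3 to 83.6 CPM, and was the 1 such value among the 8 members tested for it in the only group of 4. Chance marks about 1 in 20 groups.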

How the results depend on the processing

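Over the alternatives, 1142 of 1208 member values kept their direction and their side of the threshold, 33 changed sign, 16 gained a call and 17 lost one. Of members called, the average over the sexes gave 0 to 1 in leave-one-out fits and males 0 to 3, with 1 in males without the low-count filter and 3 by DESeq2. In males the same fits called many more genes: 3133 without male L6S1 A, 264 without the filter and 904 by DESeq2, against 34. Males against females averaged over the levels gave 0 to 1 in leave-one-out fits, and 0 with library totals alone (Prokr2, adjusted p = 0.0543 in edgeR) and without D and E. At L6S1 the leave-one-out fits gave 0 to 5, no filter 2, DESeq2 3, and without D and E or with only the 2 groups compared 0 (Prokr2, adjusted p = 0.271 and 0.111 in edgeR). The causes were not tested.

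Some log2 fold changes changed sign, none of which had passed. Leaving out 1 library gave, for L6S1 over L345 averaged over the sexes, -0.08 to 0.26 for Kit (limma voom -0.11) and -0.33 to 0.05 for Smr2; in females, -0.22 to 0.53 for Smr2, -0.28 to 0.52 for Avpr1a and -0.05 to 0.23 for Prokr2; in males, -0.59 to 0.15 for Fam19a1; and for the difference between the sexes, -0.59 to 0.10 for Cpne6. For males over females it gave -0.10 to 0.20 for Cpne6 averaged over the levels, -0.39 to 0.15 for Cpne6 at L6S1, and at L345 -0.04 to 0.34 for Kit, -0.60 to 0.14 for Fam19a1 and -0.13 to 0.42 for Cpne6. Without D and E, Kit in males was 0.09, and at L6S1 between the sexes Smr2 was -0.07 and Cpne6 0.18.

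The replicate block changed no member's call. In males its level effect rests on the A pair alone, and there it gave 0.36 for Kit, 0.64 for Fam19a1 and -0.72 for Cpne6. For males over females the block joins letters that the sexes merely share; it gave -0.27 for Cpne6 averaged over the levels and -0.38 for Smr2 at L6S1, with Prokr2 at adjusted p = 0.00709 and 0.00853 in edgeR, in fits that called 369 and 669 genes against 12 and 13. Depth was lowest for Smr2, at 4 to 34 reads per library, while Prokr2 had 18 to 188.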
